A study of Mus musculus with 17 samples.

Results

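The 10 genes described here mark reactive astrocytes and were followed across 15 RNA-seq libraries of mouse frontal cortex: Gfap, Vim, Serpina3n, Timp1, Lcn2, Cd44, Osmr, S1pr3, Steap4 and Aspg. They were taken by name as 10 of the 46073 genes in the files, and they were selected on values of these same libraries, in which Gfap and Serpina3n had been seen to be higher in the dTgDox libraries. Levels are FPKM, the authors' values of fragments scaled by transcript length and library size, so levels of different genes are compared here per length. Of the 10 genes, 9 passed the filter on low values, a level of 0.5 FPKM or more in 3 or more libraries, which kept 19064 genes in all. Steap4 reached 0.5 FPKM in no library and is described by its levels alone.

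Astrocytes answer injury, inflammation and protein deposits by enlarging their processes and raising intermediate filament proteins, chiefly GFAP and vimentin, along with secreted protease inhibitors and cytokine receptors. This state is called reactive gliosis, and in rodents much of it is driven by cytokines of the interleukin-6 family that signal through the shared receptor chain gp130 to the transcription factor STAT3. In healthy mouse brain, astrocytes of the hippocampus and of white matter carry more GFAP than most astrocytes of cortical grey matter.

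The dTgDox group (n = 3) held male FVB/N mice carrying both the CamK driver transgene and the miR-211 transgene, which the labels call dTg-211, treated with doxycycline for 4 days. The dTg group (n = 6 used) held male FVB/N mice with the same 2 transgenes and no doxycycline. The Ct group (n = 6) held male FVB/N mice with the CamK driver alone and no doxycycline. CamK drivers act in excitatory forebrain neurons and not in astrocytes, and PTRE, the promoter the labels name for the miR-211 transgene, usually stands for a tetracycline-responsive one. Whether doxycycline switches it off or on is not given in the sources used here. All groups carry the driver, and none of them is a driver-only group given doxycycline, so effects of the drug itself and of its action on the miR-211 transgene cannot be told apart. The labels do not say that libraries came from separate animals and give no age, so p-values measure the spread between these libraries, which may be technical.

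In each library, 15762 to 16085 genes reached 1 FPKM, and the total FPKM was 628549 to 695518. Depth is known only roughly, from the FPKM worth of 1 read, and the read numbers given below rest on it. The library deposited as dTg replicate 1 was left out because it is identical to the one deposited as NTg replicate 1, the library of a mouse carrying the miR-211 transgene alone, and because its cerebellar markers summed to 2650 FPKM against 131 FPKM or less in every other library. The 3 dTgDox libraries also stood apart from their label of frontal cortex. All 18 hippocampal neuron markers together summed to 345, 395 or 401 FPKM in them, against 92.0 to 118 FPKM in dTg and 87.6 to 119 FPKM in Ct, and none of the 18 was at 0 throughout a group. Over all tested genes, 9.65% were called higher and 9.22% lower in dTgDox than in dTg (limma adjusted p under 0.05). Of the 17 hippocampal markers tested, 14 were called higher and 0 lower, 1 of which passed the filter only through dTgDox. Every dTgDox library carried this difference, so it cannot be told apart from doxycycline in any comparison below. In whole tissue, fewer cells of a type and less RNA per cell cannot be told apart either.

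The 300-base promoter windows of the 2 genes that were high in dTgDox are shown beside those of Vim, the other filament gene, and of Steap4, because Gfap and Steap4 are the 2 of the 10 that hold a STAT-type motif. Windows run 5′ to 3′ across the start annotated by RefSeq (GRCm38.p6), with most of each window upstream of it, and capitals mark a match to TTCNNNGAA, the letters searched for STAT factors. Gfap is the window at chr11:102897151-102897450 on the minus strand, Serpina3n at chr12:104406458-104406757 on the plus strand, Vim at chr2:13574061-13574360 on the plus strand and Steap4 at chr5:7960222-7960521 on the plus strand.
Gfap: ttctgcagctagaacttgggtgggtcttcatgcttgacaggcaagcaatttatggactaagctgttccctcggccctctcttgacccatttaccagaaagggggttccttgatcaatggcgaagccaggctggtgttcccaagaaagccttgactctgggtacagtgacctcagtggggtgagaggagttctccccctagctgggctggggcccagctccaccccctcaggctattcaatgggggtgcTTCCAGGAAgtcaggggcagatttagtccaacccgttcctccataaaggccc
Serpina3n: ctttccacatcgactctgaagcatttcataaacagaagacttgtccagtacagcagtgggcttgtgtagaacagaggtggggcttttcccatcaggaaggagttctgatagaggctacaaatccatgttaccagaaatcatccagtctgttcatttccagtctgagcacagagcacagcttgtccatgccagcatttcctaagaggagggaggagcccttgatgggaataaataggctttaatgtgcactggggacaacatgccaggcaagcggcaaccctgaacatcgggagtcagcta
Vim: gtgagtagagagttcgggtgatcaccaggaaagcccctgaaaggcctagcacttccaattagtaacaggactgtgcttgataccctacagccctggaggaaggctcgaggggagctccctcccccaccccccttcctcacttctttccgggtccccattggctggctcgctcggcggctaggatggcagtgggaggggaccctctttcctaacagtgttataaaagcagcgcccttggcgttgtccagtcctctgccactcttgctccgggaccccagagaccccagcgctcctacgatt
Steap4: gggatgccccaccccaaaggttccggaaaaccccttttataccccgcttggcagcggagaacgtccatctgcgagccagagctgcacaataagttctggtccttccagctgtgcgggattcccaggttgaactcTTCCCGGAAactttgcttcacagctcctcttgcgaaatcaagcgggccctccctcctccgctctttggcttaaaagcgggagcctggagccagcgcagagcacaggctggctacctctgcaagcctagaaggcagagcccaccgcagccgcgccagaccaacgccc
The Gfap match, TTCCAGGAA at bases 249 to 257 of its window, lies across the annotated start, although the GENCODE span of the gene reaches further upstream, and the Steap4 match, TTCCCGGAA, lies at bases 135 to 143. A window of this length holds the STAT letters in 8.30% of 32851 RefSeq promoters. The AP-1 letters TGANTCA, present in 7.81% of all windows, were found in 1 of the 10 genes, as TGATTCA at bases 254 to 260 of the Osmr window. The nuclear factor I palindrome, present in 0.0365% of all windows, was found in none. Both strands were read, each of these motifs is its own reverse complement in pattern, and the other 7 genes held no match to any of the 3 patterns.

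The transgene product is miR-211, shown with bases 2 to 8, its seed, in capitals because the seed sets which transcripts it can pair with (RefSeq, GRCm38.p6, chr7:64205831-64205852, plus strand).
mmu-miR-211-5p: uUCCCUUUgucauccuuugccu
Among the longest annotated 3′ untranslated regions of the 10 genes, 1 held a match to the seed. It is an 8mer in Gfap at chr11:102888285-102888292 on the minus strand, shown in capitals within 30 bases of the transcript (GENCODE M21, GRCm38).
Gfap site: aattcagacagAAAGGGAAagtccctgagg
Of 14374 tested genes with such a region, 17.5% held a match to bases 2 to 8 and 7.54% an 8mer. Serpina3n holds no match to the seed, and whether miR-211 acts through the Gfap site was not tested.

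In dTg with Ct, the comparison of mice with and without the miR-211 transgene, none of the 9 tested genes was called. Across all 19064 genes limma called 0 (0%), with 607 at an unadjusted p under 0.05, and limma was the single tool used. This comparison did not choose the genes, so they are tested in it. Their fitted differences, on the log2(FPKM + 0.5) scale used for every difference here, lay between -0.20 for Timp1 and 0.15 for Cd44, and all 9 limma adjusted p-values were 1. For Gfap the difference was 0.08 (SE 0.26), and for Serpina3n it was -0.10 (SE 0.27). Since no gene passed, with a smallest adjusted p of 0.31, differences well beyond their SE could also have gone undetected.

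Gfap (ENSMUSG00000020932, chr11:102887336-102900912, minus strand) encodes the intermediate filament protein that marks astrocytes. It had 276, 127 and 204 FPKM in dTgDox replicates 1, 2 and 3. Its level was 20.0 FPKM in the lowest dTg library, with a median of 36.6 and a highest of 42.0 FPKM, and in Ct these values were 19.0, 27.5 and 49.0 FPKM. All 3 dTgDox libraries lay above every dTg and Ct library, and the dTg and Ct ranges overlapped almost fully. The fitted difference was 2.55 (SE 0.32) for dTgDox minus dTg and 2.63 (SE 0.32) for dTgDox minus Ct. The mean was 202 ± 74.5 FPKM in dTgDox (SD, n = 3), 6.01 times the dTg mean of 33.7 ± 9.03 FPKM (SD, n = 6) and 6.25 times the Ct mean of 32.4 ± 11.6 FPKM (SD, n = 6). These differences chose the gene and are given without a test, and the 2 comparisons share the dTgDox libraries.

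Vim (ENSMUSG00000026728, chr2:13573927-13582826, plus strand) encodes vimentin, which forms filaments together with GFAP in reactive astrocytes and is also made by endothelial cells and fibroblasts. It had 40.3, 24.6 and 38.5 FPKM in dTgDox replicates 1, 2 and 3. The lowest, median and highest values were 23.4, 24.7 and 31.8 FPKM in dTg and 21.9, 25.7 and 37.0 FPKM in Ct. Replicates 1 and 3 of dTgDox lay just above every other library, and replicate 2 lay within both ranges. Its fitted difference was 0.39 (SE 0.17) against dTg and 0.31 (SE 0.17) against Ct, or 0.61 and 0.53 without dTgDox replicate 2. The ratio of dTgDox to dTg means was 1.34 for Vim and 6.01 for Gfap.

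Serpina3n (ENSMUSG00000021091, chr12:104406729-104414329, plus strand) encodes a secreted inhibitor of serine proteases that astrocytes release when they become reactive in mouse. It had 43.0, 27.5 and 42.8 FPKM in dTgDox replicates 1, 2 and 3. In dTg the lowest, median and highest values were 2.53, 6.39 and 9.70 FPKM, and in Ct they were 4.45, 6.62 and 10.3 FPKM. As with Gfap, the dTgDox libraries all lay above the other 12, and the dTg and Ct libraries overlapped. On the log2 scale the difference was 2.51 (SE 0.33) against dTg and 2.41 (SE 0.33) against Ct, with a ratio of means of 5.79 and 5.58. Serpina3n belongs to a cluster of related genes, and 6.90% of the 50-base windows of its transcript also occur in another annotated gene, against 0% for Gfap and Vim.

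Timp1 (ENSMUSG00000001131, chrX:20870166-20874735, plus strand), an inhibitor of matrix metalloproteases that rodent astrocytes secrete after injury, was low throughout. It had 0.745, 0.0895 and 0.462 FPKM in dTgDox replicates 1, 2 and 3, against a lowest, median and highest of 0.310, 0.422 and 0.921 FPKM in dTg and 0.302, 0.667 and 0.906 FPKM in Ct. The 3 groups overlapped, with dTgDox replicate 2 below all other libraries. Its difference was fitted as -0.13 (SE 0.24) against dTg and -0.34 (SE 0.24) against Ct. Without dTgDox replicate 2 the sign against dTg turned, with values of 0.16 and -0.04.

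Lcn2 (ENSMUSG00000026822, chr2:32384633-32388252, minus strand), a secreted lipocalin that rises steeply in astrocytes after systemic inflammation in mice, had 0.105, 0 and 0.20 FPKM in dTgDox replicates 1, 2 and 3. The lowest, median and highest values were 0, 0.208 and 2.08 FPKM in dTg and 0.108, 0.315 and 0.883 FPKM in Ct. All 3 dTgDox values lay within the dTg range, and the single high library was a dTg one. The difference came to -0.50 (SE 0.42) against dTg and -0.47 (SE 0.42) against Ct. About 0 to 48 reads per library stood behind these values, with a median of 4, so a moderate difference was not detectable at this depth. Neutrophils also make LCN2. The neutrophil genes S100a8 and S100a9 each differed by -1.03 from dTg and were not called. The 7 neutrophil and blood markers include haemoglobin genes, so their sum does not measure neutrophils alone. All 7 together summed to 320 to 825 FPKM in dTgDox, 581 to 1630 FPKM in dTg and 479 to 3080 FPKM in Ct. None was at 0 throughout a group. The part of neutrophils in the Lcn2 level was not tested.

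Cd44 (ENSMUSG00000005087, chr2:102811141-102901665, minus strand) encodes the hyaluronan receptor found on fibrous and reactive astrocytes. It had 2.40, 0.601 and 2.01 FPKM in dTgDox replicates 1, 2 and 3, against a lowest, median and highest of 0.511, 0.752 and 1.69 FPKM in dTg and 0.407, 0.726 and 0.986 FPKM in Ct. Replicates 1 and 3 of dTgDox lay above all dTg and Ct libraries, and replicate 2 lay below the median of both groups. Its fitted difference was 0.58 (SE 0.29) against dTg and 0.73 (SE 0.29) against Ct, and without dTgDox replicate 2 it was 1.01 and 1.16.

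Osmr (ENSMUSG00000022146, chr15:6813577-6874969, minus strand) encodes the oncostatin M receptor, which pairs with gp130 and signals through STAT3. It had 1.47, 0.797 and 1.41 FPKM in dTgDox replicates 1, 2 and 3, against a lowest, median and highest of 0.785, 1.03 and 1.19 FPKM in dTg and 0.541, 0.965 and 1.13 FPKM in Ct. Its pattern was that of Cd44 at a smaller size, with 2 of the 3 dTgDox libraries above all others. On the log2 scale the difference was 0.17 (SE 0.18) against dTg and 0.32 (SE 0.18) against Ct, or 0.37 and 0.51 without dTgDox replicate 2.

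S1pr3 (ENSMUSG00000067586, chr13:51408639-51422797, plus strand), a receptor for sphingosine-1-phosphate, had 1.87, 1.60 and 1.87 FPKM in dTgDox replicates 1, 2 and 3, against a lowest, median and highest of 1.54, 2.11 and 2.50 FPKM in dTg and 1.65, 1.83 and 2.07 FPKM in Ct. The 3 groups overlapped. Its difference was fitted as -0.16 (SE 0.11) against dTg and -0.03 (SE 0.11) against Ct, or -0.10 and 0.03 without dTgDox replicate 2.

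Steap4 (ENSMUSG00000012428, chr5:7960457-7982213, plus strand), a membrane metalloreductase induced by inflammatory cytokines, was close to undetected. It had 0.0742, 0.0105 and 0.276 FPKM in dTgDox replicates 1, 2 and 3, against a lowest, median and highest of 0.0583, 0.0764 and 0.124 FPKM in dTg and 0.0670, 0.113 and 0.203 FPKM in Ct. The dTgDox libraries held both the highest and the lowest value of the 15. About 1 to 21 reads per library stood behind them, and the gene did not pass the filter.

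Aspg (ENSMUSG00000037686, chr12:112106679-112127559, plus strand) encodes an asparaginase and belongs to the genes induced in mouse astrocytes by both inflammation and stroke. It had 1.86, 0.565 and 1.92 FPKM in dTgDox replicates 1, 2 and 3, against a lowest, median and highest of 0.538, 0.813 and 1.03 FPKM in dTg and 0.645, 0.826 and 1.22 FPKM in Ct. Replicates 1 and 3 lay above all other libraries, while replicate 2 was near the bottom of the dTg range. The difference came to 0.48 (SE 0.23) against dTg and 0.43 (SE 0.23) against Ct. Without dTgDox replicate 2 these values were 0.87 and 0.81.

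**Figure D1:**
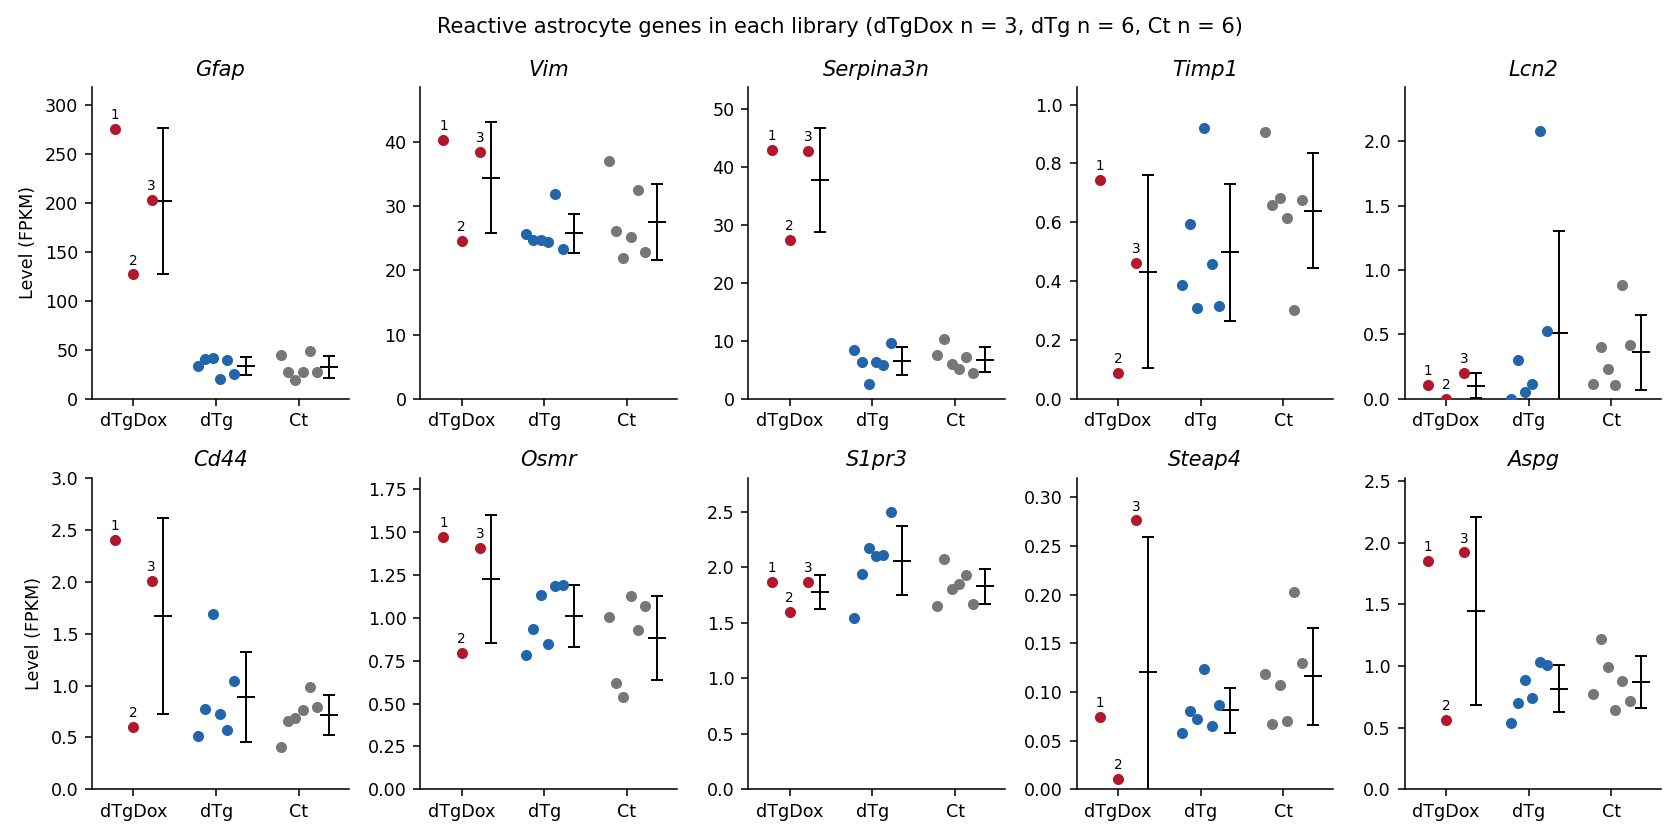
Level in FPKM (vertical axes, linear from 0, one scale per gene) of the 10 genes in each library of dTgDox, dTg and Ct. Points are libraries, numbers are dTgDox replicates, and the mark beside each group is the mean with its SD; dTgDox libraries lie above all others in Gfap and Serpina3n, and replicate 2 is the lowest dTgDox library in all 10 panels.

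The 10 genes thus showed 3 patterns across the libraries. In 2 of them, Gfap and Serpina3n, all 3 dTgDox libraries lay above every dTg and Ct library, and no gene had all 3 below. Over all 19064 tested genes, 8.06% had all 3 dTgDox libraries above and 8.06% had all 3 below. In 4 more, Vim, Cd44, Osmr and Aspg, dTgDox replicates 1 and 3 lay above every other library and replicate 2 did not. Replicates 1 and 3 were both above in 11.2% of all genes. That share includes the 8.06% with all 3 above, so it is not the share of this pattern alone. Without dTgDox replicate 1 the differences from dTg were 0.31 for Cd44, 0.07 for Osmr and 0.30 for Aspg, and for Vim the difference from Ct was 0.18. The last 4, Timp1, Lcn2, S1pr3 and Steap4, overlapped in all groups apart from single libraries. The genes were selected on these values, so the counts are a description and nothing is read from them against the background.

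Across all genes, limma called 1839 (9.65%) higher and 1757 (9.22%) lower in dTgDox with dTg, 18.9% together, and 1880 (9.86%) higher and 1878 (9.85%) lower in dTgDox with Ct, 19.7% together. Gfap and Serpina3n were the 2 of the 10 genes past that threshold in each comparison, and again nothing is read from the count. Adding the doubly deposited library back to dTg left Gfap at 2.50 and moved Serpina3n to 2.75 for dTgDox minus dTg. The same step moved Vim to 0.07 and S1pr3 to -0.01, since that library had 122 FPKM of Vim and 0.723 FPKM of S1pr3.

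**Figure D2:**
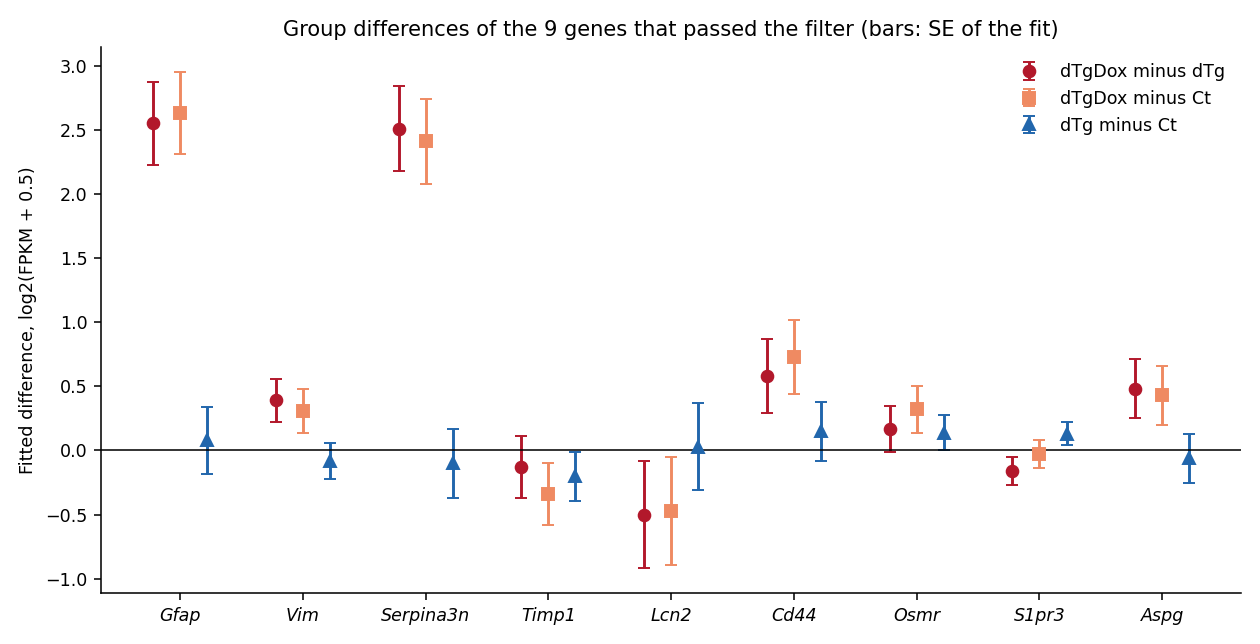
Fitted group differences (vertical axis, log2(FPKM + 0.5) units, bars are the SE of the fit) of the 9 genes that passed the filter, for dTgDox minus dTg, dTgDox minus Ct and dTg minus Ct. Gfap and Serpina3n lie between 2.41 and 2.63 in both dTgDox comparisons and within 0.10 of 0 in dTg minus Ct.

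A feature shared by all 10 genes, noticed after their values were seen, was that dTgDox replicate 2 was the lowest of the 3 dTgDox libraries. This held for 34.0% of the 19064 tested genes. For Gfap and Serpina3n replicate 2 was still above all dTg and Ct libraries, at 127 FPKM and 27.5 FPKM, and for Lcn2, Timp1 and Steap4 it was at or below the lowest of them. Other marker lists differed in whether they followed this order. Replicate 2 was the lowest dTgDox library for all 7 fibroblast and meninges markers, 12 of 14 homeostatic microglia markers and 11 of 13 plaque-associated microglia markers tested. It was the lowest for 5 of 22 homeostatic astrocyte markers, 10 of 17 hippocampal neuron markers and 0 of 8 mature oligodendrocyte markers. The mean log2 level of the fibroblast and meninges list was 3.07, 1.40 and 3.0 in dTgDox replicates 1, 2 and 3, against 1.69 to 2.31 in dTg and 1.73 to 2.38 in Ct. The part of these cells in the levels of Vim, Cd44, Timp1 and the other genes was not tested.

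The levels of Gfap and Serpina3n were also read against the astrocyte markers of the same library. The mean log2 level of 22 homeostatic astrocyte markers, none of them among the 10 genes, was 5.64 to 5.75 in dTgDox, 5.46 to 5.78 in dTg and 5.45 to 5.61 in Ct. Gfap lay 1.27 to 2.36 log2 units above that mean in dTgDox libraries, against -1.12 to -0.12 in dTg and -1.20 to 0.05 in Ct. Serpina3n lay at -0.92 to -0.20 in dTgDox, against -4.18 to -2.22 in dTg and -3.28 to -2.11 in Ct. For both genes the 3 dTgDox libraries lay above all others on this scale too, which is a description, since the genes were selected for high levels there and the marker mean differed far less between groups than they did. Vim, in contrast, lay at -1.08 to -0.35 in dTgDox, -1.13 to -0.47 in dTg and -1.05 to -0.38 in Ct, and the groups overlapped.

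**Figure D3:**
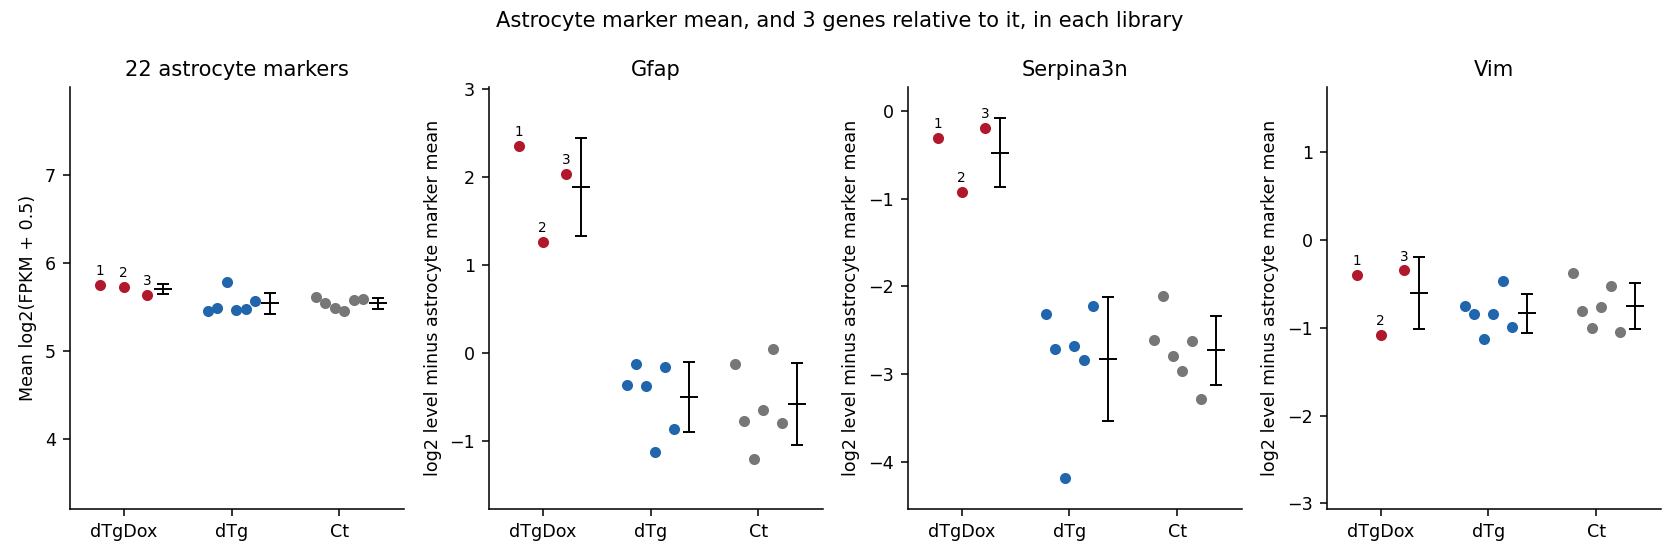
Mean log2(FPKM + 0.5) of 22 homeostatic astrocyte markers (left), and the log2 level of Gfap, Serpina3n and Vim minus that mean, in each library (points; numbers are dTgDox replicates) with the group mean and SD. All 3 dTgDox libraries lie above the others for Gfap, at 1.27 to 2.36, and for Serpina3n, at -0.92 to -0.20, and overlap them for Vim.

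The astrocyte markers themselves differed less. Of the 22, 8 were called higher and 1 lower in dTgDox than in dTg, with a median difference of 0.15 against -0.0054 over all genes. Over all genes, 9.65% were called higher and 9.22% lower. The 8 included Aqp4 at 0.43, Gja1 at 0.32, S100b at 0.38, Mlc1 at 0.35 and Cldn10 at 0.44. Each of these calls was lost in at least 1 alternative fit. Aldh1l1, the folate enzyme that marks all astrocytes, was the lower one, at 16.6 ± 2.34 FPKM in dTgDox (SD, n = 3) and 24.0 ± 4.84 FPKM in dTg (SD, n = 6), and its call was lost without dTgDox replicate 1 or 3. The glutamate transporters Slc1a2 and Slc1a3 differed by 0.04 and 0.06 and were not called. Without dTgDox replicate 1 the 9 calls became 2, without dTgDox replicate 2 or 3 or dTg replicate 5 or 7 they became 5, and with the doubly deposited library they became 2.

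Among the 12 dTg and Ct libraries, which did not choose the genes, Gfap and Serpina3n did not vary together (Pearson r of -0.16 across log2 levels, as a description). Gfap was nearer to Vim, with an r of 0.71, and to the water channel Aqp4 of astrocyte endfeet, with an r of 0.87, rank 34 of 18906 genes. Other astrocyte markers lay elsewhere, with an r of 0.69 for Gja1, 0.50 for Slc1a3, -0.13 for Slc1a2 and -0.31 for Aldh1l1, and the myelin gene Mbp had an r of 0.67. The genes most like Gfap were Cenps, Sema6a, Itm2b, Qk, Chst3 and Cyp27a1, with r of 0.92 to 0.93, and Mapk10, a neuronal stress kinase gene, was the least like it, with an r of -0.96. For Serpina3n the most like were Syt17, Icam5, Trp53i11, Susd2, Csgalnact1 and Bicra, with r of 0.83 to 0.87, and the least like were Phkb, Bcl6b and Scrg1, with r of -0.86 to -0.89. The same 12 libraries differed in their content of neighbouring regions, with striatal neuron markers summing to 113 to 522 FPKM in dTg and 143 to 969 FPKM in Ct. Olfactory bulb markers summed to 18.4 to 144 FPKM in dTg and 16.1 to 214 FPKM in Ct. Doc2g, 1 of these olfactory bulb markers, had an r of 0.62 with Gfap and 0.37 with Serpina3n. The part of regional content in these likenesses was not tested. Of the genes most like, Itm2b for Gfap and Icam5 for Serpina3n had all 3 dTgDox libraries above every other library. Scrg1, the gene least like Serpina3n, had them above too, as did 8.06% of all genes.

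Genes of the same response that are not among the 10 were read as lists, chosen with earlier results of these data known. Beside the counts of these lists stand the shares over all genes, 9.65% higher and 9.22% lower than in dTg. The other pan-reactive genes were not called in either dTgDox comparison, 0 of 3. The small heat shock gene Hspb1 had 4.86, 3.88 and 5.71 FPKM in dTgDox replicates 1, 2 and 3, against means of 6.01 ± 1.31 FPKM in dTg and 6.27 ± 2.38 FPKM in Ct (SD, n = 6 each), and the groups overlapped. Ceruloplasmin, Cp, differed by -0.23 (SE 0.26) and the chemokine Cxcl10 by -0.26 (SE 0.49) from dTg. In the list of genes tied to a neurotoxic astrocyte state in mouse, 2 of 13 were called higher than in dTg and 0 lower, with a median of 0.06. One of these was Fkbp5, a glucocorticoid-responsive chaperone, with 18.6, 17.2 and 16.9 FPKM in dTgDox, against 5.81 to 8.96 FPKM in dTg and 8.29 to 11.2 FPKM in Ct (difference from dTg 1.19, SE 0.13, limma adjusted p 2.6e-05). The other was Amigo2, an adhesion molecule, whose call was lost without dTgDox replicate 1 or 3 or without dTg replicate 2, 4 or 5. In the list tied to ischaemia, 2 of 8 were called higher than in dTg, Cd109 and Emp1, and this count was 0 without dTgDox replicate 1 or 3. Cd109 passed the filter only through the dTgDox libraries, so its call supports nothing. It could not be tested with any 1 of these libraries left out. Complement C3, often used as a marker of the neurotoxic state, did not pass the filter, with 0.553, 0.368 and 0.273 FPKM in dTgDox, against 0.0373 to 0.672 FPKM in dTg and 0.0775 to 0.408 FPKM in Ct.

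Genes upstream of the response were read in 3 lists, against shares over all genes of 9.65% higher and 9.22% lower than in dTg. Of 14 genes of the gp130, JAK and STAT3 pathway, 0 were called higher and 1 lower in dTgDox than in dTg, with a median of 0.01. Stat3 had 15.6, 11.8 and 16.7 FPKM in dTgDox and a mean of 14.5 ± 1.87 FPKM in dTg (SD, n = 6), a difference of 0.01 (SE 0.12). The lower gene was Socs3, the feedback inhibitor that STAT3 induces, with 1.14, 1.04 and 1.08 FPKM in dTgDox and 1.99 ± 0.582 FPKM in dTg (SD, n = 6). Its difference was -0.62 (SE 0.18, limma adjusted p 0.027), and the call was lost without dTgDox replicate 1, 2 or 3. The count of this list was 0 without dTgDox replicate 1 or 3 and 2 without dTg replicate 4, and it was 4 with quality weights per library, where the receptor genes Il6ra and Lifr were called higher and Il11ra1 lower. The ligand genes Il6, Lif and Cntf averaged 0.0925, 0.474 and 0.970 FPKM in dTgDox, against 0.0756, 0.488 and 0.828 FPKM in dTg. Of 12 inflammatory inducer genes tested, the interleukin-1 receptor Il1r1 was called higher (difference from dTg 0.95, SE 0.12, limma adjusted p 8.3e-05) and its adaptor Myd88 lower (-0.97, SE 0.15, limma adjusted p 0.00048). Il1b and Tnf did not pass the filter. Of 9 growth factor genes 1 was called, Tgfb2, with 10.7, 10.5 and 15.3 FPKM in dTgDox and 3.08 ± 0.627 FPKM in dTg (SD, n = 6), a difference of 1.82 (SE 0.21, limma adjusted p 3.1e-05).

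Other filament genes differed by less than Gfap. As a background to the counts here, 9.65% of all genes were called higher and 9.22% lower than in dTg. Of 10 filament genes listed, Nefl was called higher and the lamin gene Lmna and the linker Plec lower than in dTg. The stem cell filament gene Nes differed by -0.39 (SE 0.15) and the filament gene Synm by 0.04 (SE 0.12), and neither was called. Nefl had 141, 132 and 131 FPKM in dTgDox, all above the highest dTg and Ct libraries at 115 and 129 FPKM, and a difference from dTg of 0.28 (SE 0.08, limma adjusted p 0.029). Those 3 calls became 5 without dTg replicate 4 and 0 with the doubly deposited library, and Nefl was lost without any 1 of the dTgDox libraries or without dTg replicate 7. The extracellular matrix list of the glial scar held 0 higher and 1 lower of 9. The lower one was the proteoglycan gene Ncan at -0.60 (SE 0.09, limma adjusted p 0.00023), a call lost with the doubly deposited library.

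The neighbours of Serpina3n in its cluster were low and uneven. Summed over 10 paralogs without Serpina3n itself, they had 7.15, 2.63 and 7.32 FPKM in dTgDox replicates 1, 2 and 3, against 0.156 to 0.855 FPKM in dTg and 0.0910 to 1.06 FPKM in Ct. As for Serpina3n, replicate 2 was the lowest of the dTgDox libraries. Serpina3g had 2.54, 0.679 and 3.27 FPKM in dTgDox, against 0.0876 to 0.278 FPKM in dTg and 0.0762 to 0.258 FPKM in Ct. Serpina3j was at 0 in all 15 libraries, Serpina3b was at 0 in all 3 dTgDox libraries, and Serpina3a and Serpina3k were above 0 in 1 dTgDox library alone. Serpina3g and Serpina3m were the 2 that passed the filter, and only through the dTgDox libraries, so their passing calls support nothing and they could not be tested with any 1 dTgDox library left out. How reads shared between paralogs were assigned is not given in the sources used here, so these levels are uncertain. The paralogs together stayed below Serpina3n itself in every library of dTgDox.

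Genes known from astrocytes around amyloid plaques were called in 1 direction. Of 12, 7 were called higher and 0 lower than in dTg, with a median of 0.37, and 7 higher and 0 lower than in Ct. The shares over all genes were 9.65% higher and 9.22% lower with dTg, and 9.86% and 9.85% with Ct. Complement C4b had 15.3, 7.09 and 15.7 FPKM in dTgDox, against 2.74 to 5.58 FPKM in dTg and 3.06 to 4.66 FPKM in Ct, with a difference from dTg of 1.47 (SE 0.26, limma adjusted p 0.0011). The tetraspanin Cd9 differed by 0.73 (SE 0.16, limma adjusted p 0.0046) and the lysosomal protease Ctsd by 0.62 (SE 0.13, limma adjusted p 0.0038). The 7 calls against dTg became 4 without dTgDox replicate 1 and 4 with the doubly deposited library. Replicate 2 was the lowest dTgDox library for 7 of these 12 genes, C4b among them.

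Markers of other cells and tissue differed in whether they were higher in dTgDox. Their part in the levels of Gfap and Serpina3n was not tested. Among all genes, 9.65% were called higher and 9.22% lower than in dTg. Of 13 plaque-associated microglia markers tested, 7 were called higher and 0 lower than in dTg, but Cst7 and Clec7a, 2 of these, passed the filter only through dTgDox, so the count supports nothing. All 16 listed markers summed to 105 to 233 FPKM in dTgDox, 86.1 to 101 FPKM in dTg and 74.0 to 107 FPKM in Ct, with none at 0 throughout a group. The 7 became 3 without dTgDox replicate 1 and 4 without dTgDox replicate 3. Part of this drop is the filter, since Cst7 and Clec7a could not be tested with any 1 dTgDox library left out. Cst7, a cystatin of microglia near plaques, had 13.1, 1.29 and 4.86 FPKM in dTgDox and at most 0.319 FPKM in dTg. The homeostatic microglia markers had 3 of 14 called higher and summed to 309 to 421 FPKM in dTgDox, 306 to 332 FPKM in dTg and 267 to 343 FPKM in Ct, and the 3 became 0 without dTgDox replicate 1 or 3 and 1 without dTg replicate 5. Mature oligodendrocyte markers had 0 of 8 called against dTg and summed to 2720 to 4090 FPKM in dTgDox, 974 to 2660 FPKM in dTg and 1080 to 2350 FPKM in Ct. Choroid plexus markers summed to 26.7 and 45.1 FPKM in 2 dTgDox libraries and 1980 FPKM in replicate 3. In dTg they summed to 2.19 to 129 FPKM and in Ct to 4.75 to 94.1 FPKM. Endothelial markers had 0 of 8 called.

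**Figure D4:**
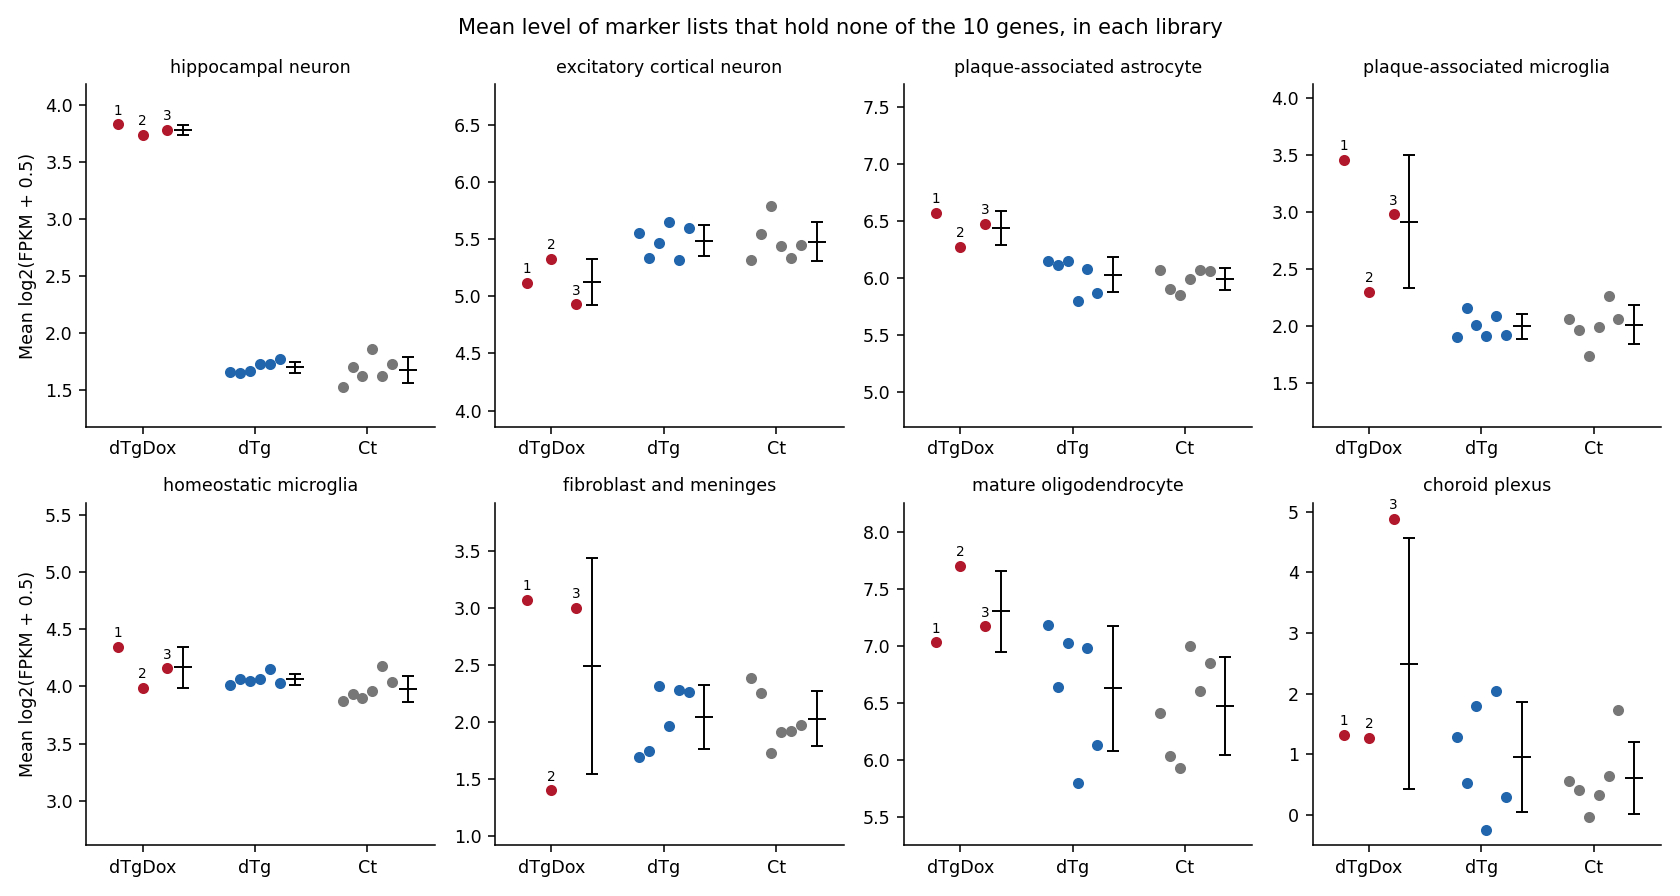
Mean log2(FPKM + 0.5) of 8 marker lists, none of which holds any of the 10 genes, in each library (points; numbers are dTgDox replicates) with the group mean and SD. The hippocampal neuron list lies at 3.74 to 3.83 in dTgDox and at 1.86 or lower elsewhere, and dTgDox replicate 2 is lowest for the fibroblast and both microglia lists and highest for the mature oligodendrocyte list.

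Among the neuron markers, the hippocampal ones separated the dTgDox libraries. Of 9 striatal markers 0 were called, although 3 had all 3 dTgDox libraries below every other library, as 8.06% of all genes did. Their median difference from dTg was -1.15. Together the striatal markers summed to 92.2 to 129 FPKM in dTgDox, 113 to 522 FPKM in dTg and 143 to 969 FPKM in Ct. C1ql2, a synaptic organizer of dentate granule cells, had 40.6, 17.4 and 34.0 FPKM in dTgDox and a mean of 0.508 ± 0.447 FPKM in dTg (SD, n = 6), a difference of 4.96 (SE 0.35, limma adjusted p 4.2e-07). Fibcd1, a marker of hippocampal pyramidal cells, differed by 3.29 (SE 0.17, limma adjusted p 1.5e-08). Among excitatory cortical neuron markers, Tbr1 and Rorb were called lower, and both calls were lost with the doubly deposited library, that of Rorb also without any 1 of the dTgDox libraries. Prnp, the prion protein gene, had 1690, 1210 and 1090 FPKM in dTgDox against a mean of 403 ± 30.5 FPKM in dTg (SD, n = 6), and App, the amyloid precursor gene, had 1270, 961 and 904 FPKM against 490 ± 58.3 FPKM. Their differences from dTg were 1.70 (SE 0.12, limma adjusted p 3.8e-07) and 1.08 (SE 0.12, limma adjusted p 2.8e-05). In both genes the 3 dTgDox libraries lay above all dTg and Ct libraries. The part of hippocampal tissue, of these 2 genes and of doxycycline in the levels of Gfap and Serpina3n was not tested and, since every dTgDox library carried all of them, cannot be told apart.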

How the data were processed

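Polyadenylated RNA was sequenced as single-end libraries, per the labels' protocols, and the submitters' processing notes name TopHat2 and DESeq without versions. The authors deposited 1 FPKM value per gene and library, and how reads shared by several genes were assigned is not given in the sources used here. Of 17 files, which hold 16 distinct libraries, 15 libraries were used: dTg replicate 1 and NTg replicate 1 agree in all 46073 genes and were left out, except in an alternative fit with 16 libraries. Ensembl identifiers were paired with symbols through GENCODE M21 (GRCm38), which matched 45139 genes. The main test was limma 3.58.1 in R 4.3.3 with trend and robust moderation on log2(FPKM + 0.5), over the 19064 genes that reached 0.5 FPKM in 3 or more libraries, with all 3 groups in 1 fit and Benjamini-Hochberg adjustment over all genes. A call is an adjusted p under 0.05. A difference on this scale understates the change of low genes. The fit was tested on simulated data. Tables were made with Python 3.11.15, pandas 2.3.3 and numpy 2.4.6. Sequences came from RefSeq tables (GRCm38.p6) and the GENCODE M21 transcripts. Of the genes outside the 10, those that could be named were the 4 with the smallest p of each list in dTgDox with dTg, a set of well-known genes, and those most and least like Gfap or Serpina3n. The members and lists were chosen with earlier results of these data known, so none of them is independent support. Alternatives were other pseudocounts, filters, rescalings and moderation, quality weights, the replicate number as a block and each library left out in turn. Read depth was estimated from the smallest steps of the FPKM values. A few genes that the rule would name are not reported here.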

Additional observations from a re-analysis of the deposited data

Results flagged for a closer look

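In the dTg libraries, 1 library lay far from the other 5 for 2 of the 10 genes, out of 20 groups of 6 libraries examined, and chance gives such a gap in about 1 of 20 groups. Vim had 31.8 FPKM in dTg replicate 6, against 23.4 to 25.6 FPKM in the other 5 dTg libraries. Lcn2 had 2.08 FPKM in the same library, against 0 to 0.528 FPKM in the others. The highest Ct values, 37.0 FPKM for Vim and 0.883 FPKM for Lcn2, lay above that Vim value and below that Lcn2 value.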

How the results depend on the processing

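Deviations of same-numbered libraries correlated at -0.188 to 0.08. Differently numbered libraries were not compared, so these values cannot show whether the replicate numbers pair the libraries. The numbers served as a block only as an alternative. Gfap and Serpina3n stayed higher in dTgDox in all 25 alternatives. With 1 library left out, Gfap lay 2.29 to 2.85 above dTg and 2.37 to 2.93 above Ct, and Serpina3n 2.29 to 2.72 and 2.31 to 2.63. With the replicate block Gfap was at 2.34 and 2.59, and Serpina3n at 2.30 and 2.14. Calls over all genes in dTgDox with dTg were 1562 with the block, 1537 with 16 libraries and 2077 to 3715 with 1 library left out, with 2077 without dTgDox replicate 1 and 2155 without dTgDox replicate 3. In dTgDox with Ct they were 2394, 1504 and 2229 to 3872, with 2229 and 2273 without these same libraries. In dTg with Ct they were 0 with the block and with 16 libraries, 1 with a pseudocount of 0.1 and 0 to 1 with 1 library left out, the 1 being without dTg replicate 3 or 6. Differences of dTg minus Ct near 0 changed sign, none with a call, and the cause was not tested. Leaving out 1 library gave -0.06 to 0.22 for Gfap, -0.22 to 0.13 for Serpina3n, -0.14 to 0.01 for Vim, -0.05 to 0.19 for Lcn2 and -0.11 to 0.01 for Aspg. Serpina3n was 0.01 with quality weights. Vim was 0.24 with 16 libraries and 0.02 with the block. Lcn2 was -0.18 with a pseudocount of 0.1 and -0.09 with the block, and S1pr3 was -0.02 with 16 libraries. With the block the plaque-associated astrocyte list held 2 calls against dTg, and Cd9 and Ctsd lost theirs. For dTgDox minus dTg, Timp1 turned to 0.01 with quality weights and 0.16 without dTgDox replicate 2, and Gdf10, a growth factor gene made by Bergmann glia, to -0.05 with 16 libraries. Of 112 calls of named genes outside the 10, 66 were lost in at least 1 alternative, and of the 46 not lost, 11 could not be tested in at least 1. The protein comparison planned for these genes was not run. Low counts limit Lcn2, Timp1 and Steap4.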
